A study of Mus musculus with 6 samples.

Results

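Replication-dependent histone genes were followed across 6 RNA sequencing libraries of sinoatrial node-like cardiomyocytes, cells modelled on the pacemaker of the heart and grown from stem cells of mouse embryos. They were taken as the rows whose symbol begins with Hist1h, Hist2h, Hist3h or Hist4h, 60 of the 30631 genes in the deposited files. By the type named in the symbol, 6 encode H1, 16 H2A, 16 H2B, 10 H3 and 12 H4. The rule reads the symbol alone, although it was proposed with earlier results of these data known.

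The groups were 3 libraries labelled Shox2-/-, from stem cells said to lack both copies of Shox2, and 3 labelled WT, also given as Shox2+/+. In both, stem cell clones were expanded on embryonic fibroblasts of the mouse, made to differentiate as hanging drops and sorted at stage 7+1 days for CD166, the product of Alcam. Each library was made from 500 ng of total RNA. The Shox2-/- titles share 1 clone-like prefix and the WT titles carry 3, so genotype and clone cannot be told apart. Whether a group's libraries stem from separate cultures is not said. Libraries 1 and 2 labelled WT share the number Diff9 in their titles with library 3 labelled Shox2-/-, and the others carry other numbers. Libraries 1 and 2 labelled WT were also much alike, with endothelial markers at 13631 and 13666 normalized counts against 3516 in library 3. They may therefore not be separate samples, although each counts as 1 of 3 below. The p-values therefore describe only how these samples spread, and part of that may be technical. The sources used here give neither the strain, the allele design nor the library kit, and do not say whether counting used strand.

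Reads assigned to genes came to between 13782017 and 31151471 in the libraries labelled Shox2-/-, and to between 13504683 and 34650564 in those labelled WT, with library 1 the shallowest in both groups. Shox2 itself stood at 201, 548 and 373 normalized counts in libraries labelled Shox2-/-, against 89.6, 83.4 and 31.4 in those labelled WT, a log2 change of 2.46 (limma adjusted p = 0.201). The targeted gene was thus higher in all 3 libraries labelled Shox2-/-, and every direction below is one between labels. Alcam had a log2 change of -0.47 (limma adjusted p = 0.242). All 10 cardiomyocyte markers and all 10 pacemaker markers that were looked at were above 0 in every library, though Nppa fell to 5.19 normalized counts in library 1 labelled Shox2-/-. So were all markers listed for mesenchyme or feeder fibroblasts, epithelium, pluripotent cells, endothelium and leukocytes. Being above 0 therefore does not set these cell types apart. The pacemaker markers summed to between 3900 and 4487 normalized counts in the libraries labelled Shox2-/-, and to between 3850 and 8082 in those labelled WT, where Smoc2 alone made up 5712 of the highest sum. Hcn4, the pacemaker channel, had 306, 241 and 276 with the Shox2-/- label, against 297, 293 and 79.3 with the WT label. Markers of mesenchyme or feeder fibroblasts were also present, at 197322 to 304683 in the libraries labelled Shox2-/- and 401722 to 627184 in those labelled WT.

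Histones are the proteins around which DNA is wound. H2A, H2B, H3 and H4 form the nucleosome core, and H1 binds the DNA that enters and leaves it. The replication-dependent genes lie in clusters, mostly lack introns and are read in S phase, when newly copied DNA has to be packaged. Their messages usually end in a short stem-loop in place of a poly(A) tail, and the stem-loop binding protein Slbp holds this end through processing, export and translation. When DNA synthesis stops the messages are quickly destroyed, which makes them a marker of cells in S phase.

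The stem-loop is shown because it is the feature that sets these messages apart from most others. A 16-base form of it, spelled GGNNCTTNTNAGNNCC and searched on the sense strand only, was found in the GENCODE M21 transcript models of 38 of the 58 members whose IDs were in that annotation. It was found in 314 of all 141767 transcripts, or 0.221%. This share counts transcripts, those of the members among them, while the figure for members counts genes. Models that end at the stop codon cannot hold it. In the following examples the 16 bases are in capitals and 3 flanking bases are in lower case.
Hist1h1c (H1, mm10 chr13:23739512-23739527, plus strand): aaaGGCTCTTTTCAGAGCCacc
Hist1h2ab (H2A, mm10 chr13:23751572-23751587, plus strand): aaaGGCTCTTTTCAGAGCCacc
Hist1h2bb (H2B, mm10 chr13:23747203-23747218, plus strand): aaaGGCTCTTTTAAGAGCCacc
Hist1h3c (H3, mm10 chr13:23745047-23745062, minus strand): aaaGGCTCTTTTAAGAGCCacc
Hist1h3g (H3, mm10 chr13:23535889-23535904, plus strand): aaaGGCTCTTCTTAGAGCCacc
Hist1h4d (H4, mm10 chr13:23581950-23581965, plus strand): aaaGGCCCTTTTCAGGGCCact
Hist1h4j (H4, mm10 chr13:21735437-21735452, plus strand): aaaGGTCCTTTTCAGGACCacc
Hist4h4 (H4, mm10 chr6:136803998-136804013, minus strand): aaaGGCCCTTTTCAGGGCCcac

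The arms of the stem differed by type. All 27 stem-loops found in H1, H2A, H2B and H3 genes had GGCTCTT at the start, and all 11 found in H4 genes had GGCCCTT or GGTCCTT. The commonest form outside H4 was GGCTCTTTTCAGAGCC, present in 3 H1, 6 H2A, 6 H2B and 4 H3 genes. In H4 genes it was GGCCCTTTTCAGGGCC, present in 6. The 38 tested members with a stem-loop in their model had a median log2 change of 0.52, and the 16 without one 0.49.

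Many H2A and H2B genes stand head to head and share the stretch between them. Of the 11 such pairs with a gap of at most 1000 bases, that of Hist1h2ae (minus strand) and Hist1h2bg (plus strand) is shown because the 175 bases between the starts hold all 3 motifs searched. The sequence is that of RefSeq on GRCm38.p6, plus strand, chr13:23571221-23571395. Capitals mark CCAAT on either strand, the octamer ATTTGCAT, which the factor Pou2f1 is known to bind, and TATAAA.
Hist1h2ae-Hist1h2bg: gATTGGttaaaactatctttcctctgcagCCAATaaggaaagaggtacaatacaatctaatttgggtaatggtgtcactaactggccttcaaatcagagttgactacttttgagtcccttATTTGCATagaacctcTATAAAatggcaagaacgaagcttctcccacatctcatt

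Over the RefSeq promoters of 52 members, which run from 250 bases before to 50 bases after the start, the octamer was found on either strand in 7 of 14 H2A and 6 of 13 H2B promoters. A match between head-to-head genes can count for both, as the printed octamer did for Hist1h2ae and Hist1h2bg, so these H2A and H2B promoters are not all separate. The octamer was found in 0 of 6 H1, 0 of 8 H3 and 0 of 11 H4 promoters, and in 1.74% of all 32851 promoters. CCAAT was found in 44 of the 52 (3 of 11 for H4), against 37.4% of all promoters, and TATAAA in 33, against 13.6%. In the printed stretch no match overlaps another. The 11 tested H2A and H2B members with the octamer had a median log2 change of 0.49, and the 14 without it 0.54.

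Summed over all 60 genes, the histone messages were higher in the libraries labelled Shox2-/-. The sums were 176768, 143871 and 176385 normalized counts in libraries 1, 2 and 3 labelled Shox2-/-, against 130882, 136797 and 93582 in those labelled WT. The groups did not overlap, but library 2 labelled Shox2-/- lay close to libraries 1 and 2 labelled WT, and library 3 labelled WT lay below the rest. The means were 165675 ± 18884 for the libraries labelled Shox2-/- and 120420 ± 23430 for those labelled WT (SD, n = 3 each), a ratio of 1.38. The ratio was 1.24 without library 3 labelled WT, 1.47 without library 2 labelled Shox2-/- and 1.32 without both. As a share of reads assigned to genes, the members took 0.741%, 0.614% and 0.764% in libraries 1, 2 and 3 labelled Shox2-/-. The 95% Wilson interval for the first was 0.737 to 0.746 and covers counting error only. The members took 0.584%, 0.606% and 0.398% in libraries 1, 2 and 3 labelled WT (0.396 to 0.401 for the last). In bulk samples, fewer cells in S phase and fewer histone transcripts per cell cannot be told apart.

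All 5 histone types had a higher mean sum in the libraries labelled Shox2-/-, with ratios between 1.32 and 1.48. H1 genes summed to 65536, 56305 and 66921 normalized counts in libraries labelled Shox2-/-, against 52424, 50532 and 39997 in those labelled WT, a ratio of 1.32. H3 genes summed to 21102, 15087 and 18907 with the Shox2-/- label, against 14675, 14483 and 8179 with the WT label, a ratio of 1.48. H4 genes summed to 43569, 38560 and 41941 with the Shox2-/- label, against 32660, 34845 and 22048 with the WT label, a ratio of 1.39. For these 3 types the groups did not overlap. H2A genes summed to 18754, 13679 and 18359 in the libraries labelled Shox2-/-, against 11985, 14335 and 9517 in those labelled WT (ratio 1.42). H2B genes summed to 27806, 20239 and 30256 with the Shox2-/- label, against 19137, 22601 and 13841 with the WT label (ratio 1.41). For H2A and H2B, library 2 labelled Shox2-/- fell below library 2 labelled WT.

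**Figure D1:**
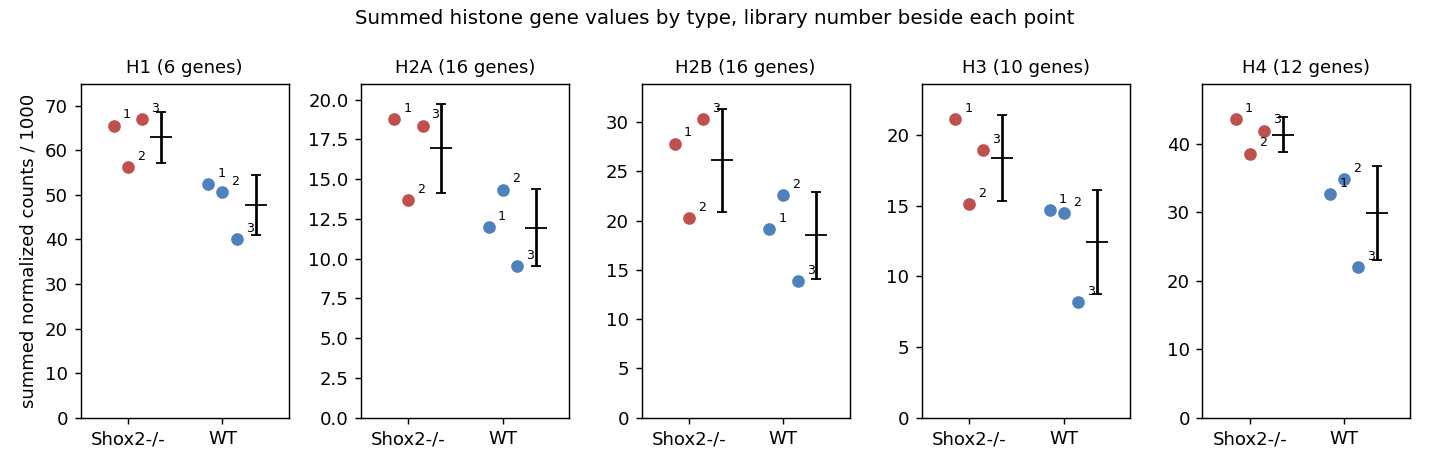
Summed normalized counts (divided by 1000, vertical axis) of the histone genes of each type, 1 panel per type, for the libraries labelled Shox2-/- on the left and WT on the right. Points are libraries with their replicate number, and the bar beside them is the mean ± SD of 3. In every panel library 3 labelled WT is the lowest, and library 2 labelled Shox2-/- is the lowest of its group.

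Gene by gene, the direction was nearly uniform while no gene passed the test. Of the 60 members, 56 had at least 10 normalized counts in at least 3 libraries and were tested with limma on log2(normalized count + 1), where 52 had a positive log2 change (Shox2-/- over WT) and 4 a negative one. At an adjusted p under 0.05 (Benjamini-Hochberg over all 17034 genes tested), 0 members were called, and the background was 0% of all genes. The adjusted p ranged from 0.215 to 0.954 over the members, and the lowest over all genes was 0.0954. At an unadjusted p under 0.05, 27 members were higher (48.2%) and 0 lower, where 6.92% of all genes tested were higher and 7.23% lower. The groups did not overlap for 23 members that were higher (41.1%, background 12.8%) and for 1 that was lower (background 10.8%). The median log2 change was 0.51 over the members, with a range of -0.34 to 1.07, and 0.01 over all genes tested. The members share libraries and in part reads, so these counts are not independent of each other. For low genes, the added 1 makes this log2 change too small.

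The 33 members with a mean of at least 1000 normalized counts were all higher in the libraries labelled Shox2-/-, by 0.35 to 0.69 on the log2 scale. Among the 23 with a lower mean, 19 were higher, and the range was wider, from -0.34 to 1.07. The counts depended on single libraries. Without library 2 labelled Shox2-/-, 47 members did not overlap and were higher (83.9%), where 19.6% of all genes did so among these 5 libraries. In the same setting 40 members were higher at an unadjusted p under 0.05 (71.4%, background 6.21%). That number was 9 without library 1 labelled Shox2-/- (16.1%, background 3.93%) and 8 without library 3 labelled Shox2-/- (14.3%, background 6.65%). It was 15 without library 3 labelled WT (26.8%, background 8.86%).

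**Figure D2:**
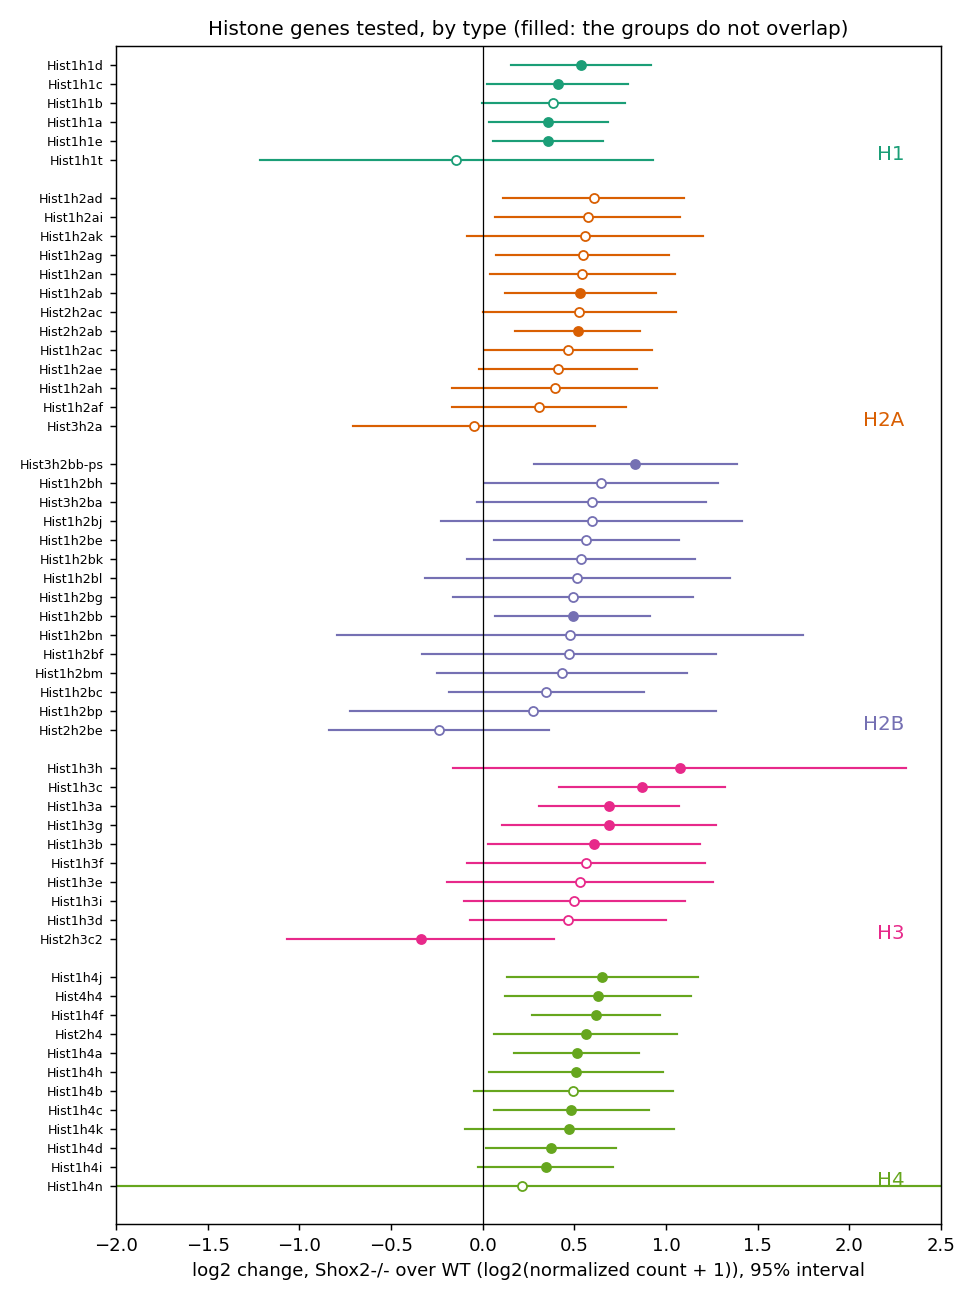
Log2 change of each of the 56 tested histone genes (Shox2-/- over WT, log2(normalized count + 1)) with its 95% interval, grouped by type from H1 at the top to H4 at the bottom. Filled points are genes whose groups do not overlap. 52 points lie above 0, and the interval of Hist1h4n runs past both ends of the axis.

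The linker histones H1 had 6 members in the files, all tested, of which 5 were higher and 0 called (median log2 change 0.37). The groups did not overlap for 4 of them, all higher (66.7%, background 12.8%). Hist1h1c (ENSMUSG00000036181, mm10 chr13:23738808-23740367, plus strand) had 17126, 16243 and 19173 normalized counts in libraries labelled Shox2-/-, against 15120, 14499 and 10406 in those labelled WT. The groups were apart, with library 3 labelled WT well below its 2 fellows, and the log2 change was 0.41 (SE 0.16; limma adjusted p = 0.334). Hist1h1d had 10789, 10569 and 12532 with the Shox2-/- label, against 9080, 8414 and 6161 with the WT label, a log2 change of 0.53. It had the lowest adjusted p of the type, 0.271. Hist1h1a had 14396, 10569 and 12014 in the libraries labelled Shox2-/-, against 10211, 9791 and 8701 in those labelled WT, and Hist1h1e 13220, 12369 and 14606 with the Shox2-/- label, against 11399, 11087 and 9024 with the WT label. Their log2 changes were both 0.36, and the groups were apart, narrowly so for Hist1h1a. Hist1h1b had a log2 change of 0.38 with groups that overlapped. Hist1h1t, the linker histone of the testis, was near the floor at 12.1, 8.94 and 18.5 with the Shox2-/- label, against 8.30, 22.2 and 14.9 with the WT label, with a log2 change of -0.14.

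Core histone H2A had 16 members, of which 13 were tested, 12 were higher and 0 called (median log2 change 0.53). Hist1h2ab (chr13:23751126-23751598, plus strand) had 4410, 3705 and 4832 normalized counts in libraries labelled Shox2-/-, against 3024, 3637 and 2371 in those labelled WT. Library 2 labelled Shox2-/- and library 2 labelled WT nearly met, and the log2 change was 0.53 (SE 0.18; limma adjusted p = 0.287). Hist2h2ab had 296, 307 and 330 with the Shox2-/- label, against 239, 214 and 199 with the WT label, with tight groups that were apart and a log2 change of 0.52 (limma adjusted p = 0.252). For these 2 members the groups did not overlap (15.4% of those tested in the type, near the background of 12.8%). For Hist1h2ak, at 2581, 1470 and 1901 in the libraries labelled Shox2-/- and 1359, 1763 and 941 in those labelled WT, they did, because library 2 labelled Shox2-/- fell below library 2 labelled WT. Hist1h2ac (log2 change 0.47), Hist2h2ac (0.53) and Hist1h2ad (0.61) overlapped in the same way. Over the type, the log2 changes ran from -0.05 (Hist3h2a) to 0.61.

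Core histone H2B had 16 members, of which 15 were tested, 14 were higher and 0 called (median log2 change 0.49). Hist1h2bb (chr13:23746734-23747241, plus strand) had 6839, 6537 and 8933 normalized counts in libraries labelled Shox2-/-, against 5285, 6357 and 4288 in those labelled WT. The groups were apart by a small margin, with a log2 change of 0.49 (SE 0.18; limma adjusted p = 0.307). Hist1h2bg had 4182, 2644 and 4288 in the libraries labelled Shox2-/-, against 2833, 3393 and 1765 in those labelled WT, so that library 2 labelled Shox2-/- lay inside the WT range (log2 change 0.49). Hist1h2bc had 3528, 2190 and 3585 with the Shox2-/- label, against 2549, 2778 and 1902 with the WT label, with the same overlap and a log2 change of 0.35. Hist1h2be (0.56) and Hist1h2bk (0.53) also overlapped. Of the H2B members only Hist1h2bb and the pseudogene Hist3h2bb-ps had groups that did not overlap. They made up 13.3% of those tested in the type, near the background of 12.8%.

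Core histone H3 had 10 members, all tested, of which 9 were higher and 0 called (median log2 change 0.58). Hist1h3c (minus strand, chr13:23744973-23745602) had 562, 863 and 650 normalized counts in libraries labelled Shox2-/-, against 420, 388 and 317 in those labelled WT. The groups were well apart, library 2 labelled Shox2-/- being the highest, and the log2 change of 0.87 (SE 0.19) had the lowest limma adjusted p of all members, 0.215. Hist1h3a had 1242, 1519 and 1530 with the Shox2-/- label, against 825, 1091 and 768 with the WT label, also with groups apart (log2 change 0.69; limma adjusted p = 0.226). Hist1h3h had 834, 830 and 921 in the libraries labelled Shox2-/-, against 690, 637 and 155 in those labelled WT. Its log2 change of 1.07 was the largest among the members and the least certain of the type (SE 0.53), since library 3 labelled WT stood at 0.233 of the mean of its 2 fellows. Hist1h3b (log2 change 0.61) and Hist1h3g (0.69) also had groups apart. Hist1h3e, at 5356, 3346 and 4817 in the libraries labelled Shox2-/- and 3932, 3853 and 1894 in those labelled WT, and Hist1h3f (0.56) overlapped through library 2 labelled Shox2-/-.

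Core histone H4 had 12 members, all tested and all higher, with 0 called (median log2 change 0.50). For 10 of them the groups did not overlap (83.3%, background 12.8%). Hist1h4d (chr13:23581598-23582735, plus strand) had 9014, 7880 and 8696 normalized counts in libraries labelled Shox2-/-, against 7019, 7655 and 5309 in those labelled WT. The groups were apart and library 2 labelled WT came close, with a log2 change of 0.37 (SE 0.15; limma adjusted p = 0.339). Hist1h4h had 6036, 5985 and 5968 with the Shox2-/- label, against 4704, 5299 and 2997 with the WT label. The libraries labelled Shox2-/- were almost level, and those labelled WT spread widely below them (log2 change 0.51). Hist1h4f had 2933, 2807 and 3361 with the Shox2-/- label, against 2028, 2320 and 1631 with the WT label, with the lowest adjusted p of the type (log2 change 0.62, SE 0.15; limma adjusted p = 0.228). Hist1h4a, at 3865, 3866 and 3802 in the libraries labelled Shox2-/- and 2836, 3171 and 2179 in those labelled WT, had a log2 change of 0.51. Hist1h4c (0.48) and Hist1h4j (0.65) had groups apart as well. Hist4h4, the lone member on chromosome 6 (chr6:136801553-136804415, minus strand), had 3638, 2862 and 3583 with the Shox2-/- label, against 2485, 2632 and 1540 with the WT label, a log2 change of 0.63 (limma adjusted p = 0.294).

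Some members departed from this pattern or could not be read. Hist2h2be (chr3:96221119-96223738, plus strand), an H2B gene known to give a polyadenylated message in differentiated cells, had 77.9, 69.7 and 115 normalized counts in libraries labelled Shox2-/-, against 84.7, 110 and 111 in those labelled WT. The groups overlapped, and the log2 change was -0.24 (SE 0.26). Its head-to-head neighbour Hist2h2ac had 0.53, a difference of 0.77 within the pair, and its 2620-base transcript model held no stem-loop. Of 6 members known for polyadenylated forms (Hist1h1c, Hist1h2ac, Hist1h2bc, Hist1h2bk, Hist1h4h and Hist2h2be), 5 were higher and 0 called, with a median of 0.44.

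The 3 Hist3 members on chromosome 11 did not share the low level of library 3 labelled WT. Hist3h2ba had 232, 269 and 349 normalized counts in libraries labelled Shox2-/-, against 154, 154 and 265 in those labelled WT, where library 3 was the highest of its group (log2 change 0.59). Hist3h2a had 156, 330 and 285 with the Shox2-/- label, against 231, 261 and 269 with the WT label, with no consistent order of the groups (log2 change -0.05). Its annotation shares 708 exon bases with Trim17 on the same strand, so its reads could be divided between the 2 genes. The processed pseudogene Hist3h2bb-ps had 123, 172 and 212 with the Shox2-/- label, against 88.0, 92.6 and 95.8 with the WT label, with groups apart and a log2 change of 0.83 (limma adjusted p = 0.253). It has no protein product in the annotation.

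Hist2h3c2 was the 1 member lower in all libraries labelled Shox2-/-, at 10.4, 12.5 and 12.6 normalized counts against 13.3, 17.6 and 14.9 in those labelled WT, a log2 change of -0.34 (SE 0.31) near the floor of the test. Hist1h2aa and Hist1h2ba, a pair known from the testis, stayed under 10 normalized counts in every library, as did the pseudogenes Hist1h2aj and Hist1h2al. These 4 were not tested. Hist1h4n was at 1.73, 76.0 and 83.0 in the libraries labelled Shox2-/-, against 6.64, 71.0 and 19.6 in those labelled WT, so that the spread inside each group was far wider than its log2 change of 0.21 (SE 1.41).

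The libraries of a group differed from each other in the same direction for most histone genes. Library 3 labelled WT was the lowest of the 6 for 47 of the 56 tested members (83.9%), where it was the lowest for 26.6% of all genes tested. By cluster, that held for 43 of 47 Hist1, 3 of 5 Hist2, 0 of 3 Hist3 and 1 of 1 Hist4 members. Against the mean of libraries 1 and 2 labelled WT, its summed value was 0.777 for H1, 0.723 for H2A, 0.663 for H2B, 0.561 for H3 and 0.653 for H4. Library 2 labelled Shox2-/- was the lowest of its group for 43 of 56 members, a count given without the share over all genes. The highest value of the 6 was in library 1 labelled Shox2-/- for 29 of 56 members, where it was there for 25% of all genes tested. It was in library 3 labelled Shox2-/- for 22 members, against 9.83% of all genes tested. Expressed as a median log2 deviation from each member's mean, the libraries labelled Shox2-/- stood at 0.39, 0.04 and 0.37, against -0.11, 0.01 and -0.60 for those labelled WT. Library 2 of both groups thus lay close to the members' own means.

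**Figure D3:**
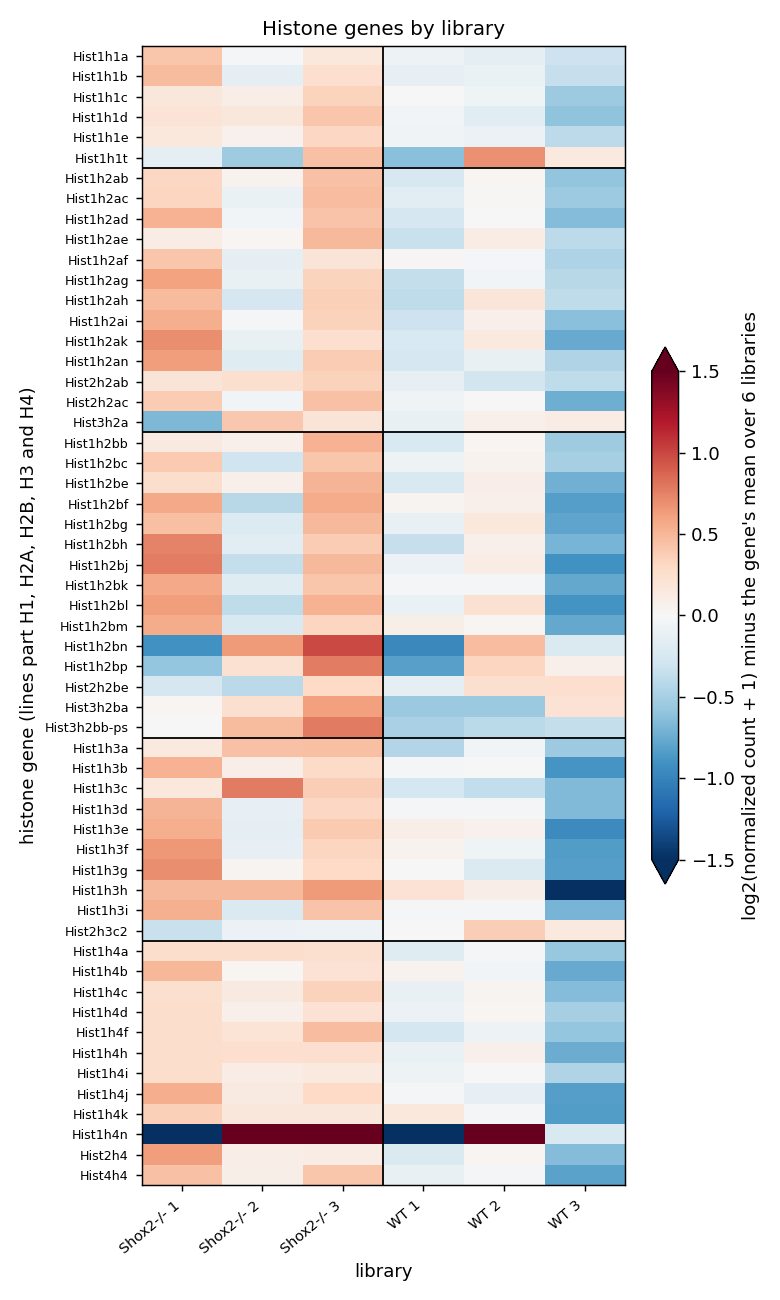
Each row is a tested histone gene, each column a library, and the colour is log2(normalized count + 1) minus that gene's mean over the 6 libraries (colours saturate at 1.5 in either direction). Library 3 labelled WT is the lowest for 47 of 56 genes, and the rows that break the pattern are mainly the Hist3 genes and genes with low values.

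The median log2 change was similar in each block of the main cluster. On chromosome 13, the 12 tested members between 21715763 and 21832196 (mm10) had a median log2 change of 0.51. The 5 between 22035164 and 22043676 had 0.54, and the 28 between 23531050 and 23764406 had 0.49. The 12 other tested genes lying between the first and the last member of the main cluster had a median of 0.15, with 8 higher and 4 lower. The 8 tested Hist1 pairs of head-to-head H2A and H2B genes differed within the pair by 0.05 to 0.27, and the Hist3h2bb-ps and Hist3h2a pair by 0.88. The pair of the printed sequence had 0.41 (Hist1h2ae) and 0.49 (Hist1h2bg).

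Near-identical copies limit how far single members can be told apart. Of the 50-base stretches of a member's longest transcript model, a median of 48.1% also occurred, on either strand, in another annotated gene. At least 50% did in 26 of the 58 members with annotation. Genes annotated over the same bases were counted too, such as an antisense miRNA that shares 138 exon bases with Hist1h2ab. These shares thus mix copies elsewhere with overlap at the same place. The sources used here do not say how reads with several equal places were counted. The 24 tested members with at least 50% shared had a median log2 change of 0.53, and the 30 with less had 0.49. Hist1h2be and Hist1h1e share 496 exon bases on the same strand. Hist1h2ac shares 108 with an rRNA gene on the same strand, and Hist1h4b shares 223 with an antisense gene. The values of these 4 members are uncertain for that reason too.

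The machinery that makes, ends and destroys histone messages was set beside them. Of 19 such genes tested, the libraries labelled Shox2-/- were higher for 16 and lower for 3, with 0 called and a median log2 change of 0.16. At an unadjusted p under 0.05 in limma, 2 were higher (10.5%, background 6.92%). Slbp, which binds the stem-loop, had 2341, 2253 and 2047 normalized counts in libraries labelled Shox2-/-, against 1756, 1754 and 1884 in those labelled WT. The groups were apart, and library 3 labelled WT was the highest of its group, unlike in most histone genes (log2 change 0.30; limma adjusted p = 0.287). Cstf2, a cleavage factor subunit, had 2574, 2524 and 2264 with the Shox2-/- label, against 1958, 1938 and 1956 with the WT label (log2 change 0.33; limma adjusted p = 0.254). Npat, the coactivator of histone genes at the G1 to S transition, had 3367, 3563 and 2903 with the Shox2-/- label, against 2994, 3065 and 3735 with the WT label, with groups that overlapped and a log2 change of 0.01. Cpsf2, a subunit of the cleavage complex, had 0.21, and Pou2f1, the octamer factor, 0.21 at values between 43.8 and 80.7 in the libraries labelled Shox2-/- and 48.1 and 52.8 in those labelled WT.

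Histones that are made outside S phase, the replacement and variant forms, were mixed. Of 11 tested, 9 were higher and 2 lower with 0 called, and the median was 0.17. H2afx, the variant phosphorylated at DNA breaks, had 2772, 2155 and 2201 normalized counts in libraries labelled Shox2-/-, against 1520, 1720 and 1370 in those labelled WT. Its groups were apart, with a log2 change of 0.63 (limma adjusted p = 0.215). The H2afx message is itself known to exist in a stem-loop form. Cenpa, the H3 variant of centromeres, had a log2 change of 0.45 with groups apart, and H2afy, a macroH2A, 0.32. H3f3b, which encodes the replacement H3, had 0.01. H1f0, the linker histone linked to differentiated cells and named here after its values were seen, had 5574, 7837 and 7916 with the Shox2-/- label, against 9308, 9424 and 8580 with the WT label, with groups apart and a log2 change of -0.37 (limma adjusted p = 0.339). Of 12 histone chaperones and assembly factors, 11 were higher with 0 called (median 0.24), among them Hira (0.37), Daxx (0.30) and Rbbp4 (0.25).

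Genes of S phase and mitosis were higher in the libraries labelled Shox2-/- too, with another pattern among the WT libraries. Of 30 S phase genes tested, 29 were higher and 0 called. For 18 of them (60%, background 12.8%) the groups did not overlap, and the median log2 change was 0.32. Cdc6, which loads the replicative helicase, had 2092, 2077 and 1515 normalized counts in libraries labelled Shox2-/-, against 1286, 1132 and 887 in those labelled WT (log2 change 0.78; limma adjusted p = 0.226). Dut, an enzyme of nucleotide supply, had a log2 change of 0.42. Of 15 mitosis genes, 15 were higher and 0 called, with groups apart for 12 (80%, background 12.8%) and a median of 0.34. Bub1, a spindle checkpoint kinase, had 5147, 5017 and 5049 with the Shox2-/- label, against 3744, 3751 and 4037 with the WT label, a log2 change of 0.40 (limma adjusted p = 0.208). Tpx2, a spindle factor, had 0.38, and Cdk1, the kinase that drives mitosis, 0.36. In the S phase list the median deviations were 0.33, 0.07 and 0.09 in the libraries labelled Shox2-/-, against -0.15, -0.14 and -0.20 in those labelled WT. In the mitosis list they were 0.26, 0.12 and 0.12 with the Shox2-/- label, against -0.18, -0.18 and -0.07 with the WT label. Library 3 labelled WT thus lay beside its fellows for both lists and below them for the histone genes, and library 3 labelled Shox2-/- was nearly level with library 1 for the histone genes and well below it for both lists.

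**Figure D4:**
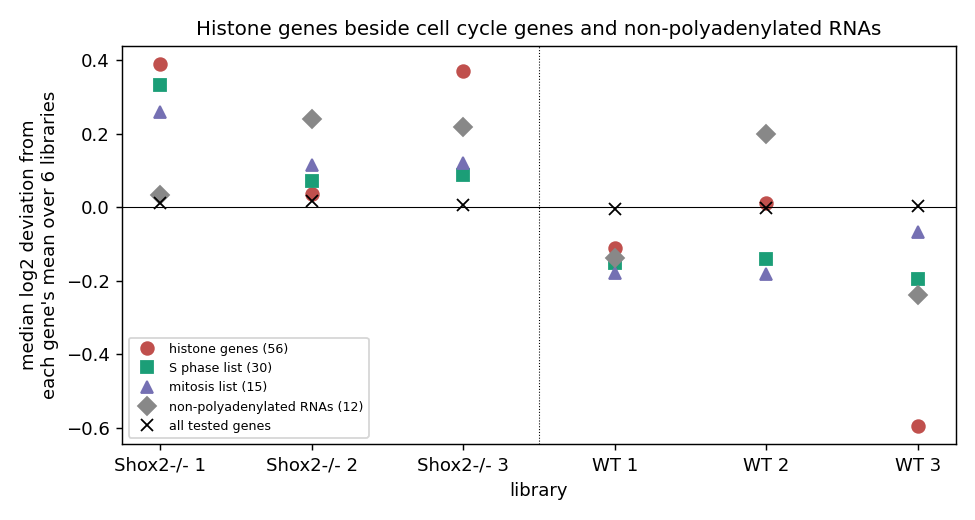
Median log2 deviation from each gene's mean over the 6 libraries (vertical axis) for histone genes, S phase genes, mitosis genes, non-polyadenylated RNAs and all tested genes, by library. Library 3 labelled WT stands at -0.60 for the histone genes and at -0.20 and -0.07 for the S phase and mitosis lists.

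Since most histone messages lack a poly(A) tail, RNAs that also lack one were read in the same libraries, first the 3 of highest mean value. Rn7sk, the RNA that holds a transcription elongation factor inactive, had 499132, 427469 and 476572 normalized counts in libraries labelled Shox2-/-, against 461552, 434677 and 354332 in those labelled WT. Rmrp, the RNA of a mitochondrial and ribosomal RNA processing enzyme, had 198438, 106328 and 174526 with the Shox2-/- label, against 200985, 177844 and 78617 with the WT label. Rpph1, the RNA of ribonuclease P, had 221300, 167289 and 221910 with the Shox2-/- label, against 222238, 205779 and 141156 with the WT label. For these 3, library 2 labelled Shox2-/- and library 3 labelled WT were the lowest of their groups, but library 1 labelled WT was as high as library 1 labelled Shox2-/- for Rmrp and Rpph1. The whole list did not follow them. Of its 12 tested RNAs, library 2 labelled Shox2-/- was the lowest of its group for 5 and the highest for 6, and library 3 labelled WT was the lowest of its group for 7. The list's median deviations were 0.03, 0.24 and 0.22 with the Shox2-/- label, against -0.14, 0.20 and -0.24 with the WT label. Of 12 such RNAs tested, 7 were higher and 5 lower with 0 called (median 0.12). The groups were apart for 0 of them, where 12.8% of all genes were apart and higher and 10.8% apart and lower. The lowest p were those of Scarna13 (log2 change 0.27), Terc (0.39) and Scarna2 (0.22). Their part in the histone result was not tested.

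A further pair of scalings, chosen after the data were seen, set the histone genes against these lists. Scaled to Rn7sk, Rmrp and Rpph1, the histone sums were 146908, 170168 and 155234 in the libraries labelled Shox2-/-, against 111017, 126509 and 137899 in those labelled WT. The groups stayed apart and the order inside them changed, with a median log2 change of 0.37 over the members while the median of all genes moved to -0.13. Under this scaling 26 members were apart and higher (46.4%), where 1.94% of all genes were. Scaled to the S phase list, the sums were 141841, 138379 and 167177 with the Shox2-/- label, against 142678, 150280 and 106826 with the WT label. The groups then overlapped, 50 of 56 members were still higher by a median of 0.21, and 0 were apart in that direction, where 1.59% of all genes were, while the median of all genes moved to -0.29. At an unadjusted p under 0.05 in limma, 1 member was higher under either scaling (1.79%), against 27 without them (48.2%). The background was 0.769% for the first scaling and 0.892% for the second, against 6.92% without them. Both scalings shift every gene of a library alike.

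Marker sums of other cell types also differed between the libraries of a group, not all in the same way. Over the 10 cardiomyocyte markers the sums were 12839, 24412 and 35635 normalized counts in libraries labelled Shox2-/-, against 29065, 27368 and 10347 in those labelled WT. They were the lowest in library 3 labelled WT, and in library 1 among those labelled Shox2-/-, where the histone sum was the highest. Gene by gene, Ttn and Tnni1 were the lowest in library 3 labelled WT, and Tnnc1 was level in these 2 libraries (77.9 and 77.7). The others, Nppa, Actn2, Myh6, Ryr2, Tnnt2, Myl7 and Myl4, were the lowest of all libraries in library 1 labelled Shox2-/-. Over the 6 endoderm markers the sums were 154, 2203 and 887 in the libraries labelled Shox2-/-, against 3069, 2702 and 8119 in those labelled WT, and over 5 leukocyte markers 218, 3159 and 356 with the Shox2-/- label, against 685, 645 and 2091 with the WT label. Library 2 labelled Shox2-/- and library 3 labelled WT thus had the highest of both sums inside their groups. In library 3 labelled WT, Afp alone made up 7020 of the endoderm sum. Among the libraries labelled WT, Foxa2 and Alb were also the highest there, while Ttr, Apoa1 and Sox17 were the lowest there. The 7 epithelial markers summed to 4914, 13882 and 5620 with the Shox2-/- label, against 11060, 9909 and 7268 with the WT label. All 7 had a negative log2 change (median -1.12), 4 with groups apart, where 10.8% of all genes were apart and lower. The 5 endothelial markers summed to 7946, 12022 and 11448 with the Shox2-/- label, against 13631, 13666 and 3516 with the WT label. The part of cell composition in the histone result was not tested.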

How the data were processed

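RNA was sequenced in 6 libraries. The submitters' processing notes name mm10 and the tools HTSeq, BWA, CASAVA 1.8.2 and DESeq2 1.14.0, with no role stated. The deposited values carry no named unit; from the values, they are gene-level counts that the authors divided by 1 size factor per library, and 100% of values came out whole, within 0.1 reads, once divided by their library's smallest step. They are called normalized counts here.

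From them, log2(value + 1) was fitted with limma 3.58.1 in R 4.3.3 (1 term for the labelled group, mean-variance trend, empirical Bayes, two-sided, Benjamini-Hochberg) over the 17034 genes with at least 10 in at least 3 libraries. The fit was tested on simulated data. The members, lists and tests were chosen with earlier results of these data known. The genes named with values were, per type, the 3 of highest mean and the 3 of lowest p, the Hist3 and Hist4 members, the polyadenylated and testis lists, Slbp, Npat, Shox2 and Alcam, and up to 3 of lowest p in each other list; others named were chosen after their values were seen, and a gene that the rule names is not reported here. Positions and transcripts came from GENCODE M21 (GRCm38, the assembly of mm10), in which 58 of 60 IDs were found, and promoters from RefSeq.

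Alternatives were other pseudocounts, filters and scalings, limma voom with library quality weights on the recovered reads, each library left out, libraries 1 and 2 labelled WT averaged, and Diff9 titles as a block. A value in library 1 of either group rests on fewer reads and carries more counting error.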

Additional observations from a re-analysis of the deposited data

How the results depend on the processing

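The median log2 change of the members was above 0 under every alternative run: without single libraries it ranged from 0.302 to 0.639 and the log2 ratio of the sums from 0.308 to 0.562, against 0.51 and 0.46. Scaled to the S phase list, an alternative added after seeing the data, they were 0.21 and 0.162. The number of genes called in limma was 0, with 2411 at an unadjusted p under 0.05. It was 2 without a filter on low values, 303 with voom and library quality weights, which gave library 3 labelled WT a weight of 0.206 and libraries 1 and 2 labelled WT 3.59 and 4.22, and 0 to 51 without single libraries (51 without library 2 labelled Shox2-/-). Members called were 3 with voom, all higher (Hist1h3c adjusted p = 0.0359, Hist3h2ba 0.0421, Hist3h2bb-ps 0.0436), and 0 under every other alternative. Members higher at an unadjusted p under 0.05 were 15 with library totals (all genes 5.1%), against 27 (all genes 6.92%). They were 8 to 40 without single libraries (all genes 3.93% to 8.86%). Scaled to Rn7sk, Rmrp and Rpph1 or to the S phase list, 1 member was higher at that p (all genes 0.769% and 0.892%). Members whose groups were apart and higher were 17 with library totals (all genes 10.5%), against 23 (all genes 12.8%). They were 23 to 47 without single libraries, where all genes ranged from 15.6% to 23.2%. The share of all genes was 19.6% where it was 47, and 23.2% without library 3 labelled WT, where it was 24. Those apart and lower were 1 to 2 (all genes 13.1% to 18.8% without single libraries). They were 0 where at least 50 in 3 libraries was required (all genes 10.5%), since Hist2h3c2 was then not tested. The Diff9 number is shared by library 3 labelled Shox2-/- and libraries 1 and 2 labelled WT, and its meaning is not stated. With it as a replicate block, 42 members were higher at an unadjusted p under 0.05 (all genes 7.39%), the median was 0.631 and 0 genes were called. Some genes near 0 changed sign. Npat was at -0.031 with library totals, -0.043 with libraries 1 and 2 labelled WT averaged, -0.085 with the block and -0.055 to 0.108 without single libraries. Hist3h2a was at 0.067 with voom and -0.262 to 0.277 without single libraries, and Hist1h1t at -0.492 to 0.166. The cause of these differences was not tested. The planned edgeR and DESeq2 fits were not run, and the recovered reads were fitted with limma alone.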

Other observations

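Library 1 of both groups, the shallowest of each, was lower than all 4 other libraries for 4 of the 56 tested histone genes. The same held for 751 of all 17034 genes tested, or 4.41%. The count is near that share and is not read as a trait of the histone genes. Hist1h2bn had 206, 605 and 773 normalized counts in libraries labelled Shox2-/-, against 199, 538 and 334 in those labelled WT. Hist1h2bp had 62.3, 110 and 161 with the Shox2-/- label, against 53.1, 118 and 98.9 with the WT label. Hist1h4n and Hist3h2a, given above, were the other two. Hist1h2an, the head-to-head partner of Hist1h2bp, had 1182, 675 and 995 with the Shox2-/- label, against 646, 710 and 559 with the WT label. It was not the lowest in library 1 of either group.

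Several short non-polyadenylated RNAs were also low in both of these libraries. Rny3, a Y RNA of the Ro particle, had 2033, 22860 and 20188 normalized counts in libraries labelled Shox2-/-, against 4410, 29023 and 14899 in those labelled WT. Rny1, another Y RNA, had 2087, 16308 and 11870 with the Shox2-/- label, against 2720, 13962 and 10824 with the WT label. Rnu12, the RNA of the minor spliceosome, had 70.9, 305 and 289 with the Shox2-/- label, against 158, 392 and 252 with the WT label. These genes were chosen after their values were seen.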
